A study of Mus musculus with 20 samples.

Results

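Fat cells release stored fat when catecholamines reach their β-adrenergic receptors, which act through the stimulatory G protein, adenylyl cyclase and protein kinase A on the lipases at the lipid droplet. A second set of receptors, coupled to inhibitory G proteins, holds lipolysis back in answer to catecholamines (α2A), lactate, adenosine, prostaglandin E2 and short-chain fatty acids. The 9 receptors described here were chosen by name and are matched by symbol among the 25219 genes of the deposited table: the adrenergic receptors Adrb3, Adrb1 and Adra1a; the inhibitory receptors Adra2a, Hcar1, Adora1, Ptger3 and Ffar2; and Npr3, the receptor that clears natriuretic peptides, a second lipolytic signal. All 9 passed the filter on low counts in both tissues. In BAT, Adra2a passed only through the Ai-α4KO libraries (48 to 142 reads), with 1 to 15 reads per Control library.

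RNA was sequenced from inguinal white adipose tissue (iWAT) and interscapular brown adipose tissue (BAT) of male mice on a mixed C57Bl/6 background, and each combination of genotype and tissue has 5 libraries. Ai-α4KO mice carried floxed alleles of Igbp1, the gene of the phosphatase-binding protein α4, and Cre-ERT2 under the Adiponectin promoter, which is active in adipocytes and not in the other cells of the tissue. Control mice, which the labels name WT, carried the floxed alleles without Cre, and mice of both genotypes received 5 tamoxifen injections of 100 mg/kg over 6 days from 2 months of age. The interval from recombination to sampling was 1 week. No label says that the libraries of a group came from separate mice, or that 1 mouse gave both tissues, so p-values measure the spread between these libraries.

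Between 24023371 and 50384446 reads were counted per library. Igbp1 fell in iWAT (log2 fold change -2.65 ± 0.09 SE) and in BAT (-2.50), with no overlap of the genotypes. All 6 brown adipocyte markers were higher in Control BAT than in Control iWAT, where Ucp1, the uncoupling protein of brown fat, lay between 5.13 and 314 CPM (counts scaled to a common library total). Libraries 4 and 5 of Control iWAT stood apart from the other 3 in several of the receptors below, and were the lowest of that group in the summed brown adipocyte markers (234 and 134 CPM, against 470 to 994 CPM). The genotype comparison in iWAT, the interaction and the comparison of Control tissues were also run without them. A value is given where that changed a receptor's call or its sign. This choice was made after seeing the data. A value or p-value without these libraries therefore shows dependence on them and is not independent support. Summed B lymphocyte markers were 431 and 171 CPM in libraries 1 and 4 of Control iWAT and 4.53 to 11.7 CPM in the other iWAT libraries, and without these 2, as with a B lymphocyte score as covariate, 5 receptors were lower and 1 was higher in iWAT, as with all libraries. Summed skeletal muscle markers were 6174 CPM in library 4 of Control and 3400 CPM in library 1 of Ai-α4KO iWAT, and at most 159 CPM in the rest.

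The receptors are encoded on 8 chromosomes (mm10, positions of the deposited table): Adora1 at chr1:134199215-134235457, Ptger3 at chr3:157566892-157644758, Hcar1 at chr5:123876736-123880020, Ffar2 at chr7:30818357-30823775, Adrb3 at chr8:27225776-27229588, Adra1a at chr14:66635251-66771168, Npr3 at chr15:11839896-11907371, and Adra2a at chr19:54045182-54048982 with Adrb1 at chr19:56722372-56724862. Only Adora1 overlaps another gene of the table, Mybph on the opposite strand. The promoter windows of 3 of them are shown because their transcripts took 3 different courses: Hcar1 fell in both tissues, Adra2a rose in both, and Ffar2 differed most between the tissues. Each sequence (RefSeq, GRCm38.p6, 5′ to 3′ on the strand of the gene) ends just before the first base of the gene. Hcar1 is shown at chr5:123880021-123880253 on the minus strand, Adra2a at chr19:54045009-54045181 on the plus strand, and Ffar2 at chr7:30823776-30824025 on the minus strand. Capitals mark the nuclear receptor half-site AGGTCA, the C/EBP-type TTGCNNAA and the CREB half-site TGACG on either strand.
Hcar1: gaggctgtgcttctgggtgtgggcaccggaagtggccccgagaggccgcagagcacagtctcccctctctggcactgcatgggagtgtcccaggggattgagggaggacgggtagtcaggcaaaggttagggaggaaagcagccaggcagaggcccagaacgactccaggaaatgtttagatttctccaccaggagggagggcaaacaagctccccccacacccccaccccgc
Adra2a: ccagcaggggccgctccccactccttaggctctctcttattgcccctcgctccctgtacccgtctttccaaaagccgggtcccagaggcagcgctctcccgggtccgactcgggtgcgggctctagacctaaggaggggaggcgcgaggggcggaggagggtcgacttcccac
Ffar2: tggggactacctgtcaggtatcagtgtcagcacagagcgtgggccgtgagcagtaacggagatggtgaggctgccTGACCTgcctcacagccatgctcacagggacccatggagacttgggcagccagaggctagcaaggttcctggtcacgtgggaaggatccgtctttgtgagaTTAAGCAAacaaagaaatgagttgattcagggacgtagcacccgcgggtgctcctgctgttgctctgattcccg
The Ffar2 sequence held 1 match to AGGTCA (as TGACCT) and 1 to TTGCNNAA (as TTAAGCAA), while the Hcar1 and Adra2a sequences held no match to the 3 motifs. In the 250 bases before each of 32851 RefSeq starts, AGGTCA occurred in 14%, TTGCNNAA in 9.6% and TGACG in 17.8% of windows. Of the 7 receptors with a window, only Ffar2 had AGGTCA or TTGCNNAA, and Npr3, Adra2a and Adrb1 had TGACG; the Adra2a match lies after the first base of the gene as the deposited table places it. These are matches of letters, with no measurement of binding.

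Levels per transcript length were compared first, in FPKM (counts per transcript length and library size) as deposited. Adrb3, the β-receptor that defines rodent fat cells, had the highest mean of the 9 in all 4 groups, at 124 ± 46.8 FPKM (SD, n = 5) in Control iWAT and 66.2 ± 21.7 FPKM in Control BAT. Npr3 exceeded it in libraries 3 (26.1 against 24.5 FPKM) and 5 (36.9 against 31.3 FPKM) of Ai-α4KO iWAT and library 3 of Ai-α4KO BAT (29.7 against 25.6 FPKM). Adrb1, the β1-receptor through which noradrenaline also acts on brown adipocyte precursors, reached 1.08 FPKM in Control iWAT and 4.10 FPKM in Control BAT. Adrb3 thus made up 98.2% to 99.6% of the summed Adrb1 and Adrb3 level in Control iWAT libraries and 88.3% to 97.2% in Control BAT libraries. In Ai-α4KO these shares were 97.7% to 99.4% and 82.9% to 96.7%, within or overlapping the Control ranges.

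Among the inhibitory receptors in Control iWAT, Hcar1, the lactate receptor, had the highest mean (41.7 ± 12.7 FPKM), followed by Adora1, the adenosine A1 receptor (24.1 FPKM), Ffar2, the receptor for acetate and propionate (15.2 FPKM), and Ptger3, the EP3 receptor for prostaglandin E2 (14.7 FPKM). Below Hcar1 this order rested on libraries 4 and 5: over the other 3 Control libraries the means were 49.4 FPKM for Hcar1, 20.8 for Ffar2, 16.7 for Adora1 and 7.5 for Ptger3. Adra2a, the α2A receptor, was lowest at 0.343 FPKM, and in Control BAT it was at 0.0533 FPKM. The summed level of the 5 inhibitory receptors was 96.0 ± 10.1 FPKM in Control iWAT and 31.1 ± 8.49 FPKM in Ai-α4KO iWAT. In BAT the sums were 39.4 ± 15.4 and 18.1 ± 4.07 FPKM, where the highest Ai-α4KO library (23.8 FPKM) was below the lowest Control library (24.2 FPKM).

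The sum of Adrb3 and Adrb1 was also lower in Ai-α4KO on average, at 44.5 against 125 FPKM in iWAT and 35.1 against 70.3 FPKM in BAT. In BAT its highest Ai-α4KO library (56.2 FPKM) exceeded the lowest Control library (48.9 FPKM). The ratio of this β-receptor sum to the inhibitory sum kept overlapping ranges. The ratio ran from 0.930 to 2.05 in Control iWAT and from 0.992 to 2.20 in Ai-α4KO iWAT, and from 0.891 to 4.25 in Control BAT and from 1.48 to 2.36 in Ai-α4KO BAT. The makeup of the inhibitory sum moved: the median share of Adra2a went from 0.361% in Control to 8.27% in Ai-α4KO libraries of iWAT, and from 0.0942% to 5.27% in those of BAT, with no overlap of the genotypes in either tissue. A transcript ratio says nothing of receptor protein or of coupling.

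**Figure D1:**
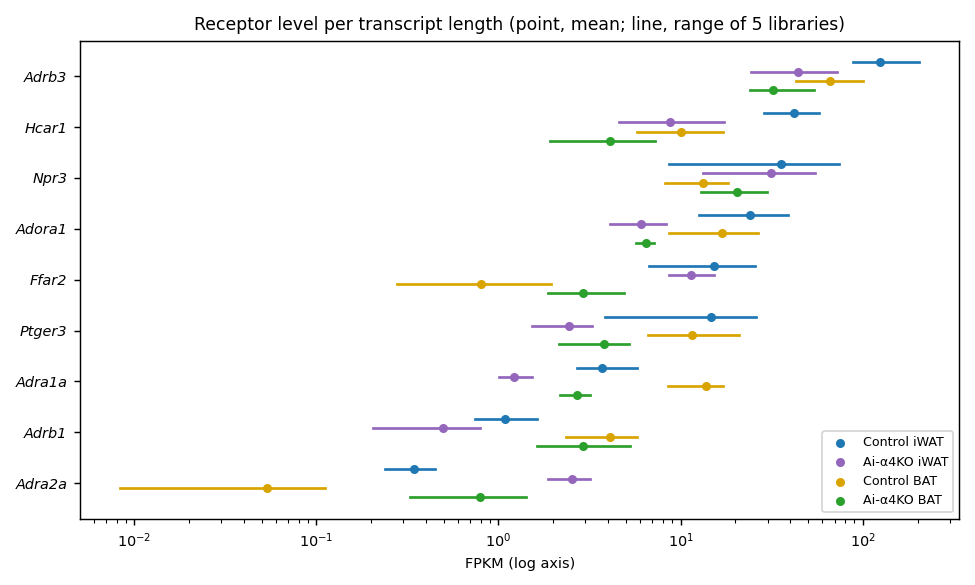
Deposited FPKM of each receptor on a log axis, with a point for the mean and a line for the range of the 5 libraries of a group, in the order of the Control iWAT means. The mean of Adrb3 lies farthest right in all 4 groups and that of Adra2a farthest left in Control BAT (0.0533 FPKM).

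In iWAT, the comparison of Ai-α4KO with Control asks which of these receptors changed after acute loss of α4 from adipocytes. A call needed 2-fold or more and an adjusted p under 0.01 (edgeR quasi-likelihood test, Benjamini-Hochberg over 14604 genes). The receptors and the gene lists below were chosen with earlier results of these data known. The shares over all genes given beside their counts are thus a description and not a test. Of the 9 receptors, 5 were lower and 1 was higher, where 10.7% of all genes tested were called lower and 11.3% higher. These 6 were also the ones whose genotypes did not overlap in iWAT, a separation that 18.3% of all genes showed downward and 20.7% upward. The median log2 fold change of the receptors was -1.63, against 0.01 over all genes. In BAT the same numbers were called, 5 lower and 1 higher, where 13.3% of 14344 genes were lower and 18.2% higher, with a median of -1.32 against -0.03 over all genes. The BAT counts were 3 lower and 0 higher with a skeletal muscle marker score as covariate. Summed muscle markers were 731 to 7554 CPM in Control and 10427 to 34655 CPM in Ai-α4KO BAT. These ranges do not overlap, so the score and the genotype cannot be fully told apart. The standard errors of the lost receptors grew with the score, and the part of muscle in their levels was not tested. Of the 6 called in BAT, 4 had no overlap of the genotypes (3 lower and 1 higher), as 23.0% of all genes had downward and 24.7% upward. Other markers fell with the receptors: summed brown adipocyte markers were 8300 to 12696 CPM in Control BAT and 1547 to 3589 CPM in Ai-α4KO BAT (2 of 6 called lower), and 134 to 994 against 17.3 to 38.9 CPM in iWAT (5 of 6). Summed endothelial markers were 678 to 938 against 272 to 354 CPM in BAT (3 of 5 called lower) and 374 to 483 against 221 to 267 CPM in iWAT (2 of 5), and no marker of either list was called higher. Their part in the receptor levels was not tested. The tissues are bulk samples, so fewer cells of a type and less RNA per cell cannot be told apart.

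Adrb3 stood at 607, 355, 406, 265 and 294 CPM in the Control iWAT libraries 1 to 5 and at 202, 80.3, 71.1, 183 and 89.3 CPM in the Ai-α4KO libraries. The 5 Ai-α4KO libraries were all below the lowest Control library. Adrb3 fell by 1.63 ± 0.34 (SE) on the log2 scale (edgeR adjusted p = 0.00200), or 3.09-fold.

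In BAT, Adrb3 was at 247, 379, 243, 182 and 151 CPM in Control and at 160, 70.3, 80.1, 104 and 77.9 CPM in Ai-α4KO. Here the highest Ai-α4KO library, number 1, exceeded the lowest Control library. The decrease passed the thresholds (log2 fold change -1.32 ± 0.27, edgeR adjusted p = 0.00100). With the skeletal muscle score as covariate the Adrb3 estimate was -1.23 ± 0.39 with an edgeR adjusted p of 0.0234, past the threshold no longer.

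Adrb1 was far lower in reads, at 2.01 to 4.37 CPM in Control iWAT and 0.524 to 2.02 CPM in Ai-α4KO iWAT. The groups overlapped by the highest Ai-α4KO library alone, and the change missed the threshold (log2 fold change -1.25 ± 0.38, edgeR adjusted p = 0.0160). It passed with the DESeq2 Wald test (adjusted p = 0.00270), in a fit of all libraries (0.00965) and without library 4 of Ai-α4KO iWAT (0.009995). In BAT, Adrb1 ran from 7.75 to 17.9 CPM in Control and from 4.20 to 14.3 CPM in Ai-α4KO, with a log2 fold change of -0.74 ± 0.34 that did not pass (edgeR adjusted p = 0.0751).

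Adra1a, the α1A receptor that signals through Gq and calcium, was at 16.2, 30.5, 25.1, 14.2 and 14.8 CPM in Control iWAT and between 5.03 and 7.63 CPM in Ai-α4KO iWAT. In BAT it was at 98.0, 56.2, 96.6, 76.1 and 104 CPM in Control and within the narrow range of 12.7 to 16.3 CPM in Ai-α4KO. The genotypes did not overlap in either tissue. The log2 fold change was -1.74 ± 0.24 in iWAT (edgeR adjusted p = 1.01e-04) and -2.62 ± 0.18 in BAT (edgeR adjusted p = 2.05e-07), the smallest adjusted p of the 9 receptors in BAT.

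Among the inhibitory receptors, Hcar1 was at 202, 186, 156, 102 and 115 CPM in Control iWAT and at 28.5, 15.5, 18.9, 57.8 and 24.8 CPM in Ai-α4KO iWAT. No Ai-α4KO library reached a Control library, and Hcar1 fell by 2.39 ± 0.35 on the log2 scale (edgeR adjusted p = 1.83e-04). The same Ai-α4KO libraries, 1 and 4, were highest in both Adrb3 and Hcar1, and they also had the highest summed adipocyte markers of that group (17130 and 18567 CPM, against 13150 to 14198 CPM in the other 3).

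In BAT, Hcar1 ran from 24.0 to 70.2 CPM in Control and from 6.53 to 25.1 CPM in Ai-α4KO, with a slight overlap. It fell by 1.56 ± 0.38 on the log2 scale (edgeR adjusted p = 0.00352). This call was lost without normalization factors (log2 fold change -1.30, adjusted p = 0.0103) and without library 3 or library 5 of Ai-α4KO BAT (adjusted p = 0.0103 each).

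Adora1 was at 77.8, 132, 119, 196 and 252 CPM in Control iWAT and between 24.5 and 49.6 CPM in Ai-α4KO iWAT. In BAT the Control libraries split into 3 at 67.8 to 94.9 CPM and 2 at 192 and 194 CPM, while all Ai-α4KO libraries lay between 34.4 and 44.5 CPM. No Ai-α4KO library overlapped a Control library in either tissue. The log2 fold change of Adora1 was -2.11 ± 0.31 in iWAT (edgeR adjusted p = 1.67e-04) and -1.65 ± 0.29 in BAT (edgeR adjusted p = 3.38e-04).

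Ptger3 spread widely in Control iWAT, at 8.22, 25.0, 18.3, 56.1 and 56.5 CPM, and was at 6.57, 3.17, 4.23, 6.70 and 4.46 CPM in Ai-α4KO iWAT. The lowest Control library was only just above the highest Ai-α4KO library. Ptger3 fell by 2.71 ± 0.49 on the log2 scale (edgeR adjusted p = 7.36e-04), and the estimate was -1.84 without libraries 4 and 5 of Control iWAT, which kept the call. In BAT it was at 17.2 to 55.5 CPM in Control and 4.49 to 11.7 CPM in Ai-α4KO, with no overlap, and fell by 1.87 ± 0.34 (edgeR adjusted p = 4.98e-04). With the skeletal muscle score as covariate the BAT estimate was -1.76 ± 0.54 (edgeR adjusted p = 0.0199), past the threshold no longer.

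Adra2a moved the other way. It was at 1.80, 1.55, 1.13, 1.42 and 1.29 CPM in Control iWAT and at 7.11, 8.70, 10.3, 10.5 and 12.3 CPM in Ai-α4KO iWAT, with a wide gap between the genotypes. Adra2a rose by 2.75 ± 0.20 on the log2 scale, 6.74-fold (edgeR adjusted p = 3.45e-06). In BAT it was at 0.137, 0.469, 0.136, 0.529 and 0.0398 CPM in Control, which rests on 3, 12, 3, 15 and 1 reads, and at 1.30, 2.59, 6.01, 2.74 and 3.97 CPM in Ai-α4KO, from 48, 97, 142, 85 and 113 reads. No library overlapped.

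The BAT increase of Adra2a was 3.57 ± 0.58 on the log2 scale (edgeR adjusted p = 2.00e-04), with a size that the few Control reads leave poorly fixed. With the skeletal muscle score as covariate it was 2.74 ± 0.95 with an edgeR adjusted p of 0.0357, past the threshold no longer. With limma on log2(FPKM + 1), a scale that compresses low genes, it was 0.74 and under 2-fold, and Ffar2 (1.12, adjusted p = 0.00237) was the receptor called higher in its place. Markers of macrophages and neutrophils moved with Adra2a. The 6 macrophage markers were all called higher in both tissues, and their sum was 899 to 1565 CPM in Control iWAT against 5889 to 7785 CPM in Ai-α4KO iWAT, and 185 to 422 CPM in Control BAT against 3651 to 5601 CPM in Ai-α4KO BAT. None of the 6 was at 0 in any group. Summed neutrophil markers went from 17.5 to 85.7 CPM in Control iWAT to 141 to 489 CPM in Ai-α4KO iWAT, and from 11.5 to 31.7 CPM to 195 to 353 CPM in BAT. Lymphocyte markers did not all do so: in iWAT none was called higher, and 1 of 5 B lymphocyte markers was called lower. In BAT, 3 of 5 T lymphocyte and 1 of 3 tested B lymphocyte markers were called higher. The part of these cells in the Adra2a level was not tested.

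**Figure D2:**
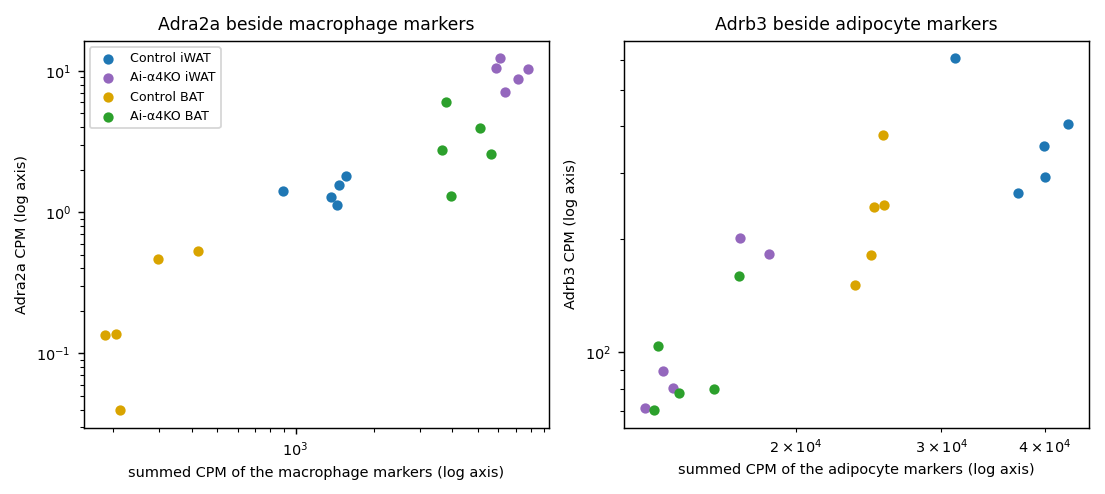
CPM of Adra2a against the summed CPM of 6 macrophage markers (left) and of Adrb3 against the summed CPM of 11 adipocyte markers (right), 1 point per library, all axes logarithmic. Ai-α4KO iWAT libraries lie at 5889 to 7785 CPM of macrophage markers and 7.11 to 12.3 CPM of Adra2a, and Control BAT libraries at 185 to 422 CPM and 0.0398 to 0.529 CPM.

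Ffar2 was at 76.5, 59.4, 61.2, 21.2 and 21.1 CPM in Control iWAT and at 36.1, 29.9, 29.0, 44.2 and 24.9 CPM in Ai-α4KO iWAT. All Ai-α4KO libraries lay between the higher 3 and the lower 2 Control libraries, and the log2 fold change of -0.55 ± 0.35 did not pass (edgeR adjusted p = 0.207). Without libraries 4 and 5 of Control iWAT, the lower 2, it was -1.06 and passed (edgeR adjusted p = 0.00137). Leaving out the lowest Control libraries enlarges the fall, so this is no support for a call. In BAT, Ffar2 was at 1.0, 3.09, 2.27, 6.88 and 1.23 CPM in Control and at 14.5, 6.07, 11.5, 6.28 and 6.29 CPM in Ai-α4KO, and only Control library 4 overlapped. The log2 fold change of 1.58 ± 0.48 missed the threshold (edgeR adjusted p = 0.0128) and was 2.19 without that library, past it (adjusted p = 7.40e-04).

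Npr3 was at 133, 104, 78.2, 508 and 600 CPM in Control iWAT and at 192, 99.5, 198, 411 and 276 CPM in Ai-α4KO iWAT. The Control libraries alone spanned the whole Ai-α4KO range, and the log2 fold change of -0.28 ± 0.59 did not pass (edgeR adjusted p = 0.706). Without libraries 4 and 5 of Control iWAT, the highest of that group, Npr3 was 1.10. This was in the other direction and also not past the threshold (edgeR adjusted p = 0.0456). In BAT the ranges were 79.2 to 181 CPM in Control and 112 to 244 CPM in Ai-α4KO, with a log2 fold change of 0.35 ± 0.28 (edgeR adjusted p = 0.289).

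**Figure D3:**
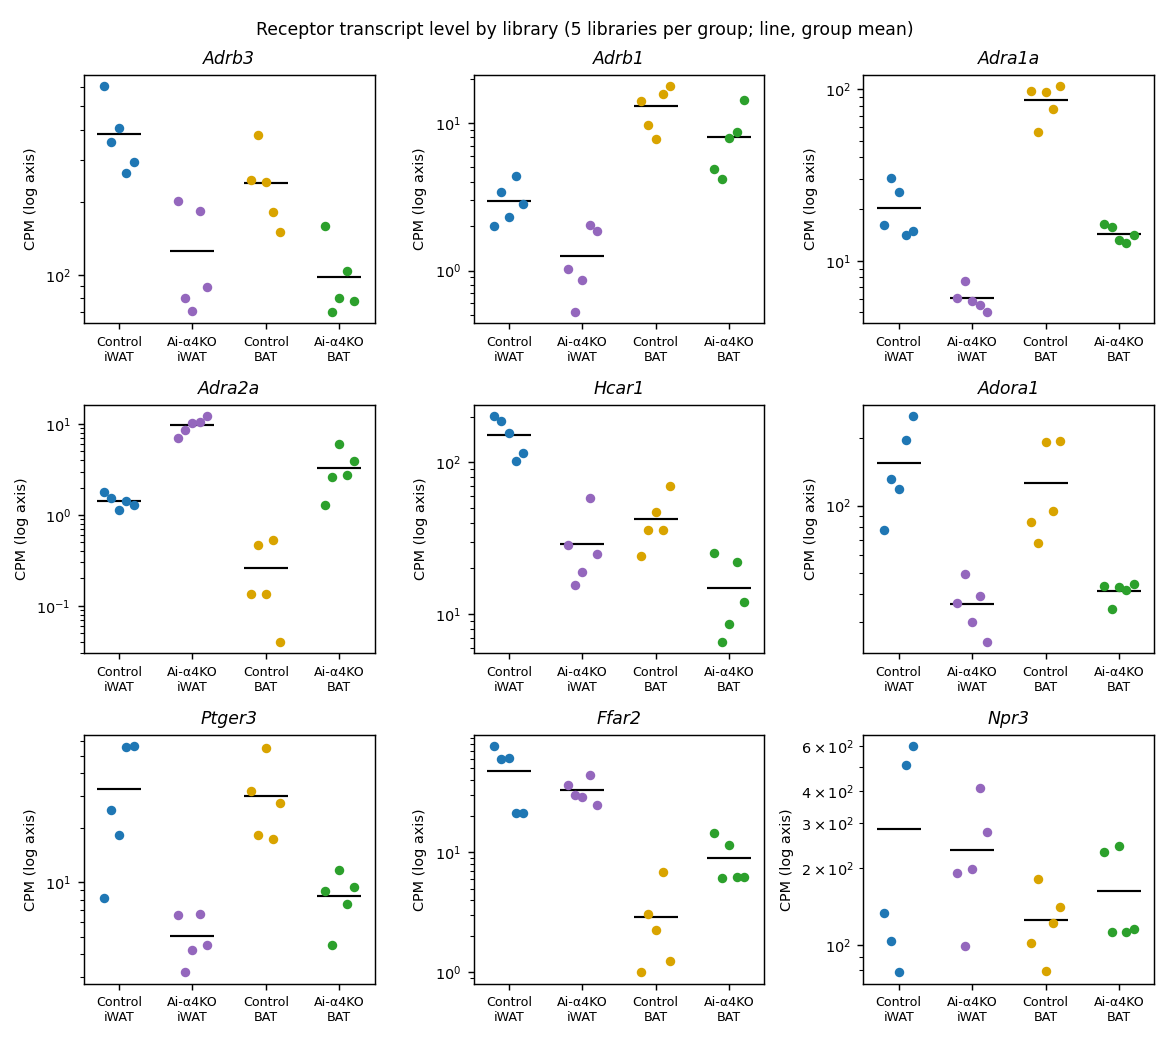
CPM of each receptor on a log axis, 1 point per library in the order 1 to 5 within each group and a line for the group mean. Adra2a is higher in Ai-α4KO than in Control in both tissues, the Ai-α4KO libraries of Adra1a, Adora1 and Ptger3 lie below all Control libraries of their tissue, and libraries 4 and 5 of Control iWAT stand apart in Npr3 (508 and 600 CPM) and Ffar2 (21.2 and 21.1 CPM).

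An interaction term in a model of the 20 libraries tested whether the genotype effect differed between iWAT and BAT. None of the 9 receptors passed an adjusted p below 0.01 with edgeR, where 4.86% of 15230 genes did. Only 2 of the 9, Ffar2 and Adra1a, had an unadjusted p below 0.05 (0.00298 and 0.00839), and the DESeq2 Wald test called 1, Ffar2. The genotype effect on Ffar2 was higher in BAT than in iWAT by 2.15 ± 0.63 on the log2 scale (edgeR adjusted p = 0.0285). Without library 4 of Control BAT this was 2.77, past the threshold (edgeR adjusted p = 0.00432). The effect on Adra1a differed by -0.85 ± 0.29 (edgeR adjusted p = 0.0533). For Adrb3, Adrb1, Adra2a, Hcar1, Adora1, Ptger3 and Npr3 the effects differed by 0.33 to 0.87 on the log2 scale with standard errors of 0.43 to 0.70, which leaves room for a difference of 2-fold in each. Without libraries 4 and 5 of Control iWAT the difference for Ffar2 was 2.61 ± 0.58 (edgeR adjusted p = 0.0103), still short of the threshold, with 329 genes higher and 111 lower among all genes, and those for Adora1 (-0.0070), Ptger3 (-0.069) and Npr3 (-0.78) turned below 0.

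The receptors also had their own distribution between the tissues of Control mice, where 2 were higher in BAT, 3 were lower and 4 did not pass, against 7.34% of all genes higher and 15.4% lower. Adra1a and Adrb1 were the 2 higher in BAT, by 2.10 ± 0.21 and 2.13 ± 0.38 on the log2 scale (edgeR adjusted p = 1.96e-07 and 1.15e-04). Ffar2 was lower in BAT, with a log2 fold change of -4.03 ± 0.50, or 16.4-fold (edgeR adjusted p = 2.20e-06), as were Adra2a (-2.41 ± 0.46, adjusted p = 2.48e-04) and Hcar1 (-1.84 ± 0.40, adjusted p = 7.18e-04). All 5 were without overlap between the Control tissues, as were 17.2% of all genes upward and 19.1% downward, and all 5 calls held without libraries 4 and 5 of Control iWAT. Without library 4 of Control BAT the Ffar2 value was -4.65. The Adra2a value rests on 1 to 15 reads per Control BAT library, and its call was lost with limma on log2(FPKM + 1) (-0.35, adjusted p = 0.0229).

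Adrb3 was -0.68 ± 0.33 on the log2 scale in Control BAT against Control iWAT (edgeR adjusted p = 0.0893). Adora1 (-0.29), Ptger3 (-0.13) and Npr3 (-1.19) did not pass, and all 3 turned to a higher value in BAT without libraries 4 and 5 of Control iWAT (0.21, 0.81 and 0.25).

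The order of the 4 groups by mean CPM was not the same for all receptors. Adrb3 and Hcar1 shared an order, as did Adora1 and Ptger3, and Ffar2 and Npr3. Adra2a ran from Ai-α4KO iWAT (9.78 CPM) over Ai-α4KO BAT (3.32 CPM) and Control iWAT (1.44 CPM) to Control BAT (0.262 CPM), and only the middle pair overlapped. Adra1a ran from Control BAT (86.3 CPM) over Control iWAT (20.2 CPM) and Ai-α4KO BAT (14.4 CPM) to Ai-α4KO iWAT (6.03 CPM), again with overlap only of the middle pair. Adora1 had a single break, between the Control groups and the Ai-α4KO groups of both tissues, and Ffar2 a single break between iWAT and BAT. The neighbours Control BAT and Ai-α4KO BAT also parted in Ptger3, although library 1 of Control iWAT (8.22 CPM) lay within the Ai-α4KO BAT range (4.49 to 11.7 CPM). In Hcar1 only Control iWAT was apart from its neighbour, and in Adrb3, Adrb1 and Npr3 every neighbouring pair overlapped.

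Since deletion was directed to adipocytes, the receptors were also set against 11 adipocyte markers, of which 9 fell in iWAT and 7 in BAT. Their summed level was 31182 to 42702 CPM in Control iWAT and 13150 to 18567 CPM in Ai-α4KO iWAT, and 23587 to 25591 CPM in Control BAT and 13467 to 17063 CPM in Ai-α4KO BAT. Library scaling was then set to keep the mean log2 level of these markers equal in all libraries, which moved the median of all genes to 1.65 in iWAT and 1.36 in BAT on the log2 scale. On this scale a value near 0 means that a receptor moved as the adipocyte markers did.

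In iWAT none of the 5 receptors that had fallen was called lower relative to the markers with edgeR (2, Hcar1 and Ptger3, at an unadjusted p below 0.05), where 0.740% of all genes were called lower and 73.0% higher. Adrb3 (-0.17 ± 0.33), Adra1a (-0.12 ± 0.32) and Adora1 (-0.39 ± 0.25) were within 2 standard errors of 0, as was Adrb1 (0.38 ± 0.38). Hcar1 (-0.92 ± 0.31, edgeR adjusted p = 0.0128) and Ptger3 (-0.98 ± 0.35, edgeR adjusted p = 0.0168) fell short of the threshold. Hcar1 passed it without libraries 4 and 5 of Control iWAT (-1.29, edgeR adjusted p = 8.51e-04), and without library 4 or 5 of Control or library 4 of Ai-α4KO iWAT alone. Ptger3 passed without library 1 of Control (-1.21, edgeR adjusted p = 9.33e-04) but was -0.32 without libraries 4 and 5 of Control (edgeR adjusted p = 0.367). Adra2a (4.40) and Npr3 (1.48) were called higher, of which only Adra2a exceeded the median of all genes. The Npr3 call was lost without library 1, 2 or 3 of Control or library 3, 4 or 5 of Ai-α4KO iWAT (adjusted p of 0.0142 to 0.0201) and with markers without Lep, Retn and Cfd (0.0174). Without libraries 4 and 5 of Control iWAT, Npr3 was 2.55 and stayed called (edgeR adjusted p = 6.70e-05). Ffar2 (0.94, edgeR adjusted p = 0.0377) was called higher without library 1 of Control iWAT (1.26) and with Adipoq alone as the marker (1.63).

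In BAT the one receptor lower relative to the markers was Adra1a (-1.22 ± 0.27, edgeR adjusted p = 1.41e-04), where 1.25% of all genes were lower and 65.2% higher. Adrb3 (-0.06 ± 0.30), Hcar1 (-0.19 ± 0.32), Adora1 (-0.20 ± 0.29) and Ptger3 (-0.49 ± 0.33) did not pass, nor did Adrb1, at a positive value (0.78 ± 0.38, edgeR adjusted p = 0.0550). Adra2a (4.98), Ffar2 (2.84) and Npr3 (1.62) were higher, each above the median of all genes, 1.36. The scaling rests on the list: with Adipoq alone as the marker, no receptor was lower in BAT and Adrb1 was called higher (1.56, adjusted p = 4.52e-04).

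**Figure D4:**
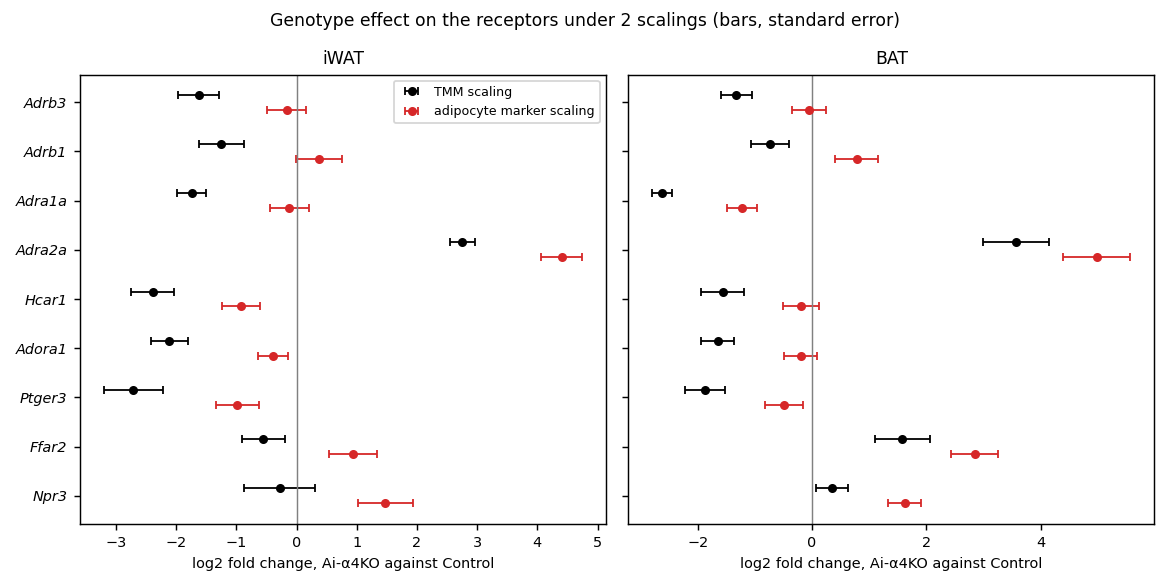
Log2 fold change of each receptor between Ai-α4KO and Control in iWAT (left) and BAT (right), with bars for the standard error, under TMM scaling (black) and scaling on 11 adipocyte markers (red). The markers' scaling brings Adrb3 to -0.17 in iWAT and -0.06 in BAT and leaves Adra2a at 4.40 and 4.98.

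Other genes of the pathway were taken from lists by role. Of the other adrenergic receptors, 3 were tested in each tissue, and only Adra1d, the α1D receptor, changed, in BAT (log2 fold change -2.12 ± 0.25, edgeR adjusted p = 1.73e-05). Over all genes 13.3% were called lower in BAT and 10.7% in iWAT.

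Receptors that share a ligand with the 9, or also act on lipolysis, split by direction: of 10 tested, 4 rose and 3 fell in iWAT, and 3 rose and 2 fell in BAT. Over all genes 11.3% rose and 10.7% fell in iWAT, and 18.2% rose and 13.3% fell in BAT, shares against which the counts of this list and of those that follow are to be read. Beside the fall of Adora1, the adenosine receptors Adora2b and Adora3 rose in iWAT (log2 fold changes of 2.64 and 2.10) and BAT (3.83 and 2.85), while Adora2a fell in iWAT (-1.29) and BAT (-2.15). Beside the fall of Ptger3, the stimulatory prostaglandin E2 receptor Ptger4 rose in iWAT (1.94) and BAT (2.45) and Ptger2 in iWAT (1.86). Hcar2, the receptor for β-hydroxybutyrate and niacin, fell in iWAT (-1.52), and the natriuretic peptide receptors Npr2 (-1.96) in iWAT and Npr1 (-1.58) in BAT.

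Of 26 transducers, 3 rose and 9 fell in iWAT, and 5 rose and 9 fell in BAT, so that the numbers that rose were near the share over all genes. Prkar2b, a regulatory subunit of protein kinase A, fell in iWAT (-1.87) and BAT (-2.58), as did Pde3b, the phosphodiesterase that lowers cAMP in fat cells (-1.85 and -2.09), and Rgs2, which limits Gq signalling (-2.13 and -2.38). Adcy7, an adenylyl cyclase abundant in blood cells, rose in both (1.49 and 2.75). In iWAT Pde4d (-1.47) and Adcy5 (-1.41) completed the 6 with the largest changes, and in BAT the scaffold arrestin Arrb2 (2.47) and Adcy2 (2.22) did so.

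Of the 6 lipolytic effectors, 4 fell in iWAT and 5 in BAT, and none rose in either. Pnpla2, the triglyceride lipase ATGL, changed most in iWAT (-2.15 ± 0.21) and BAT (-2.59 ± 0.18), followed by Lipe, hormone-sensitive lipase (-1.93 and -2.10). Plin1, the perilipin that guards the lipid droplet, fell by 1.63 in iWAT and by 1.90 in BAT, Mgll, the monoglyceride lipase, by 1.82 and 1.61, and G0s2, an inhibitor of ATGL, by 1.90 in BAT.

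Of 14 genes of ligand supply and removal tested in each tissue, 3 rose and 1 fell in iWAT, and 5 rose and 2 fell in BAT, and the numbers that fell were near the share over all genes or below it. Ptgs2, the inducible cyclooxygenase at the head of prostaglandin synthesis, rose by 3.88 ± 0.42 in iWAT and by 4.80 ± 0.46 in BAT on the log2 scale, while Ptges2, a prostaglandin E synthase, fell (-1.38 and -1.75). Entpd1, which starts the conversion of extracellular ATP toward adenosine, rose in both (1.15 and 2.01). Ptgs1, the constitutive cyclooxygenase, rose in iWAT (1.17), and in BAT so did the lactate exporter Slc16a3 (2.58) and Ada, which removes adenosine (2.20). Th, tyrosine hydroxylase, was also called higher in BAT (3.11), from 0 to 0.319 CPM in Control to 0.508 to 1.74 CPM in Ai-α4KO, a level so low that the size of the change is poorly fixed, and the call was lost with the skeletal muscle score as covariate. Of 4 sympathetic nerve and Schwann cell markers tested in BAT, Th included, it was the only one called.

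**Figure D5:**
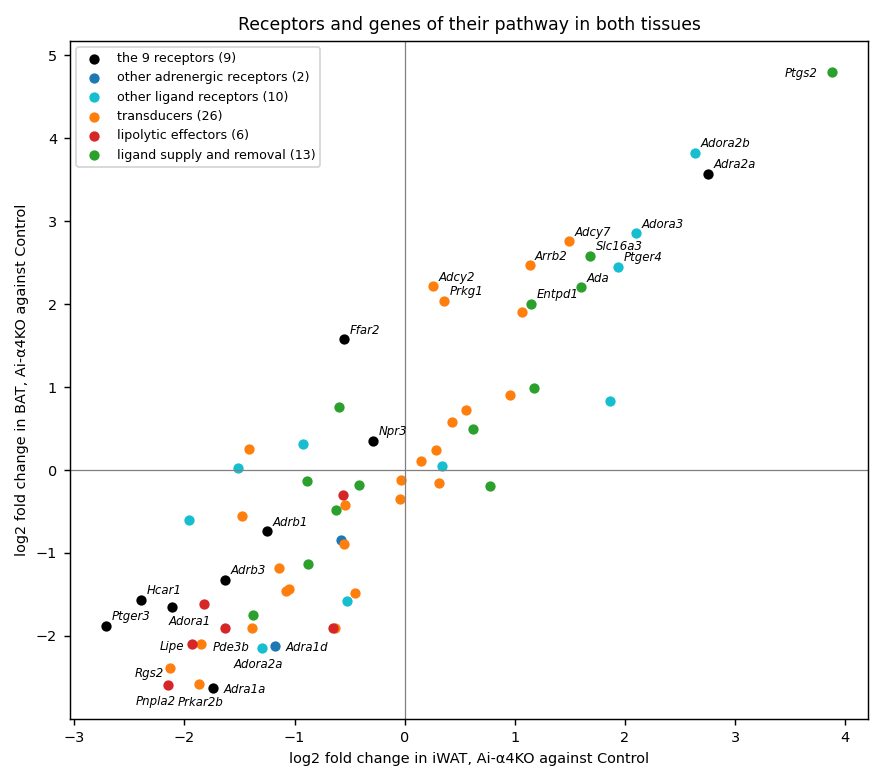
Log2 fold change of Ai-α4KO against Control in iWAT and BAT for the 9 receptors (black, named) and the other genes of the lists tested in both tissues, of which the largest changes are named. Adra2a lies in the upper right with Adora2b and Ptgs2, and 6 receptors lie in the lower left beside the lipolytic effectors.

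The genes whose pattern over the 20 libraries was nearest to each receptor were found by the root mean square difference of centred log2 CPM, among 15229 other genes. They are a description of libraries that share tissue and genotype. For Adrb3 they were Exd1 (0.393), Mgll (0.404) and Fgfrl1 (0.406), and for Adrb1 they were Coq10a, Stau2 and Pde4a (0.480 to 0.548). Adra1a had the closest neighbours of the 9, in Coq6 (0.294), Eci1 (0.332) and Ogdh (0.338), which encode mitochondrial proteins.

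Adra2a was nearest to Rgs18 (0.478), a regulator of G protein signalling of blood cells, then Gapt (0.496) and Ccdc109b (0.50). Hcar1 was nearest to Slc27a1 (0.473), a fatty acid transporter, then Gsn (0.491) and Ces1f (0.560). Adora1 was nearest to Rgs3, Agbl3 and Nudt18 (0.352 to 0.360), and Ptger3 to Nudt18, Aacs and Cdo1 (0.536 to 0.547). For Ffar2 they were C4b (0.476), Cd209b (0.584) and C4a (0.627), of which C4a and C4b are near-identical genes that can share reads. For Npr3 they were Hr (0.514), 1190002N15Rik (0.569) and Kank2 (0.581).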

How the data were processed

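Libraries of stranded mRNA gave paired reads of 150 bases. Per the labels, bcl2fastq 2, STAR 2.5.3a and mm10 were used; the counting tool and whether strand was used in counting are not given in the sources used here. The authors deposited an expected count per gene and library, without normalization, and an FPKM value, the count per transcript length and library total. Expected counts (76.7% of nonzero ones whole within 1e-6) were rounded and tested with edgeR 4.0.16 (R 4.3.3): filterByExpr, TMM, glmQLFit within each tissue (all 20 libraries for the interaction and for Control BAT against Control iWAT), and Benjamini-Hochberg adjustment over all genes tested. Calls needed 2-fold or more with an adjusted p under 0.01, the interaction the p alone. CPM used TMM, and log2 levels a prior count of 2. The depth of 24023371 to 50384446 counts sets the precision of low receptors, such as Adra2a in Control BAT. The receptors and lists were chosen with earlier results of these data known. Named are Igbp1, the receptors, up to 6 genes per pathway list and tissue with the largest change past the thresholds or any other gene of these lists, and the 3 genes of most like pattern. 2 list genes were matched by synonym. Alternatives were the DESeq2 1.42.0 Wald test, limma 3.58.1 on log2(FPKM + 1) and log2(FPKM + 0.1), other normalizations, filters and thresholds, a muscle covariate in BAT, a replicate block, other adipocyte markers and leaving out libraries. The methods were tested on simulated data.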

Additional observations from a re-analysis of the deposited data

Results flagged for a closer look

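Adora1 in library 2 of Ai-α4KO BAT (34.4 CPM) lay apart from the other 4 libraries of its group (41.8 to 44.5 CPM) by Dixon's criterion. This was 1 of 36 combinations of receptor and group checked, and chance gives about 1 in 20.

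Among 70 receptors and pathway genes, the genotype effect differed between BAT and iWAT at an adjusted p below 0.01 (edgeR interaction) for 5 genes, none of them one of the 9 receptors, where 4.86% of all genes did; 5 of 70 is near that share. On the log2 scale the effect in BAT minus that in iWAT was 1.40 for Npr2 (adjusted p = 0.00291), 1.29 for Adcy7 (0.00291), 1.36 for Arrb2 (0.00309), 1.38 for Ptges (0.00973) and -1.24 for Gnas (0.00117), the gene of the stimulatory G protein subunit. All 6 macrophage markers also passed in this interaction, and their part in these differences was not tested.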

How the results depend on the processing

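The counts of receptors called, and of genes of like pattern, kept to within 1.5 times in 250 of the 275 alternatives run on them. A count of 0 that stayed at 0 is included in the 250. Most alternatives left out single libraries and overlap one another, so this is not a rate of independent checks. The cause of the changes below was not tested. In BAT, 2 receptors were higher with DESeq2, without normalization factors, in one fit of all libraries, with limma on log2(FPKM + 0.1) and at an adjusted p below 0.05, Ffar2 joining Adra2a (with limma on log2(FPKM + 1), Ffar2 replaced it), and 1 to 2 when single libraries were left out. No receptor was higher with at least 10 counts in every library, which leaves out Adra2a, and 0 were higher and 3 lower with the muscle covariate. For the interaction, 1 was higher with DESeq2 and at an adjusted p below 0.05, and 0 to 1 without single libraries (1, Ffar2, without library 4 of Control BAT). Relative to adipocyte markers in iWAT, 1 was higher with markers without Lep, Retn and Cfd (Npr3 lost) and 1 to 2 without single libraries; 1 was lower (Hcar1) without libraries 4 and 5 of Control iWAT, a choice made after seeing the data, and 0 to 1 without single libraries. In BAT, 0 were lower with Adipoq alone. Of the 27 places for genes of like pattern (Nudt18 holds 2), 10 were shared after scaling each gene's variance, none of them for Adrb3.

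Signs turned for values not past the thresholds. Npr3 in iWAT was 0.18 and 0.20 with limma on log2(FPKM + 1) and log2(FPKM + 0.1), 1.10 without libraries 4 and 5 of Control iWAT, and -0.57 to 0.18 without single libraries. The interaction of Adra2a was -0.64 and -0.10 with limma at the same pseudocounts, and without libraries 4 and 5 of Control iWAT that of Adora1 was -0.0070, of Ptger3 -0.069 and of Npr3 -0.78. In Control BAT against Control iWAT, without libraries 4 and 5, Adora1 was 0.21, Ptger3 0.81 and Npr3 0.25, and Ptger3 ran from -0.47 to 0.16 without single libraries. With Adipoq alone as marker, Adrb3 (0.45), Adra1a (0.57) and Adora1 (0.21) in iWAT and Adrb3 (0.80), Hcar1 (0.57), Adora1 (0.57) and Ptger3 (0.32) in BAT were above 0. Adrb3 in BAT was 0.075 with markers without Lep, Retn and Cfd and -0.23 to 0.23 without single libraries; in iWAT Adrb3 ran from -0.34 to 0.17 and Adra1a from -0.28 to 0.061.

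Replicate numbers gave no clear pairing of the libraries. Same-numbered Control and Ai-α4KO libraries correlated at -0.40 to 0.12 in iWAT and -0.19 to 0.26 in BAT. Same-numbered iWAT and BAT libraries correlated at -0.09 to 0.23 in Control and -0.28 to 0.24 in Ai-α4KO, where 4 of 10 matched their own number best. Such correlations cannot exclude that same-numbered iWAT and BAT libraries came from the same mouse. The replicate block changed no receptor's call under TMM; relative to the markers in iWAT it added Ffar2 (1.25, adjusted p = 0.00503); it gave Npr3 0.067 in iWAT and Adrb3 0.031 relative to the markers in BAT.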
